A study of Mus musculus with 6 samples.

Results

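The respiratory chain is described here as the 98 protein-coding genes whose symbols name a subunit of complexes I to V or a cytochrome c, of 21764 protein-coding genes in the deposited table. They were taken by symbol: NADH dehydrogenase (Nduf), succinate dehydrogenase (Sdh), ubiquinol-cytochrome c reductase (Uqcr), cytochrome c oxidase (Cox4 to Cox8) and ATP synthase (Atp5) subunits, the mitochondrially encoded genes of the same complexes (mt-), and *Cyc1* and *Cycs*. Of the 98, 85 are nuclear and 13 are encoded by the mitochondrial genome. Complex I holds 36 nuclear and 7 mitochondrial genes, complex II 4 nuclear genes, complex III 9 nuclear genes and 1 mitochondrial gene, complex IV 18 and 3, complex V 17 and 2, and *Cycs* stands alone. *Ndufa4* is counted with complex I by its symbol, although its protein is now placed in complex IV.

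The study sequenced RNA of the cardiac side population (SP), with 3 libraries from the wild type (wt) of strain C57BL/6NRj and 3 labelled flt3L-/-. The latter came from C57BL/6Flt3Ltml/mx, a knockout strain of the cytokine Flt3 ligand. SP cells are heart cells that pump out the Hoechst dye, and each library held SP cells sorted from the pooled hearts of 4 mice after cardiomyocytes and erythrocytes had been depleted. A wt and an flt3L-/- sort were made on each of 3 dates, numbered here as pairs 1, 2 and 3. Pairs 1 and 2 were sorted in 2016 and pair 3 in 2017. Mice of both genotypes were 8 to 12 weeks old.

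Complexes I to IV pass electrons from NADH and succinate to oxygen, with ubiquinone and cytochrome c as the mobile carriers between them, and complexes I, III and IV pump protons across the inner mitochondrial membrane. Complex V uses the proton gradient to make ATP. Except for complex II, which is built from nuclear genes alone, every complex combines core subunits made inside the mitochondrion with subunits imported from the cytosol. The heart has the densest respiratory chain of the body because of its cardiomyocytes, and some cytochrome c oxidase subunits have separate isoforms in striated muscle.

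Total counts per library ranged from 24370913 to 31145519, and 3 counts, taken as the floor of detection, were 0.109 to 0.127 CPM (counts scaled to library size). The targeted gene *Flt3l* had 8.66, 10.8 and 12.1 CPM in wt and, in the order of the pairs, 13.6, 12.4 and 14.4 CPM in those labelled flt3L-/-, so its reads were not reduced there. Log2 fold changes below are those of flt3L-/- over wt from an edgeR quasi-likelihood fit to 13475 protein-coding genes that accounts for sorting date, and p-values were adjusted over all these genes by the Benjamini-Hochberg method. Endothelial markers summed to 13785, 18869 and 20091 CPM in wt and to 20827, 15481 and 25553 CPM in flt3L-/-, and fibroblast markers to 44467, 29764 and 22302 CPM against 22052, 33647 and 10248 CPM. The marker sums thus differed between libraries, and in bulk RNA fewer cells of a type and less RNA per cell cannot be told apart. The libraries are pools of mice, so a p-value refers to pools and not to single mice. In the fit it measures the spread between pools that remains after sorting date is accounted for.

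Reads of the mitochondrial genes could not always be assigned to the mitochondrial genome, because chromosome 1 of GRCm38 carries a copy of a stretch of it. The annotation lists 7 copies of mitochondrial genes on chromosome 1 between bases 24611535 and 24616197, each a separate gene. The copies of *mt-Co2* (*Gm28661*, 681 bases), *mt-Atp6* (*Gm10925*, 678 bases), *mt-Co3* (*Gm28437*, 783 bases), *mt-Nd4l* (*Gm10222*, 294 bases) and *mt-Nd4* (*Gm28439*, 876 bases) had 0 mismatches to the mitochondrial gene over those bases. The copy of *mt-Nd3* (*Gm28438*) had 1 mismatch in 345 bases and that of *mt-Co1* (*Gm29216*) 6 in 492 bases. The first 81 bases of *mt-Co3*, the length of a read, are shown because they are the same in gene and copy, and the first 81 bases of *mt-Nd3* and of *Gm28438* are shown because they hold the base that differs, in capitals.
mt-Co3 and Gm28437: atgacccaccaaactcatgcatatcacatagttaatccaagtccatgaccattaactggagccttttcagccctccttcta
mt-Nd3: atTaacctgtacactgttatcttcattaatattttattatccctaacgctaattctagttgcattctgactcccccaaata
Gm28438: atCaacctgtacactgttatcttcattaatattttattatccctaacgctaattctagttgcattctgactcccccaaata

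The counts were divided between gene and copy in 3 different ways. For *mt-Co2*, *mt-Atp6* and *mt-Co3*, which encode cytochrome c oxidase subunits and the proton-channel subunit a of ATP synthase, 0 or 1 count per library lay on the mitochondrial gene. Their copies held 11628 to 58729 counts (*Gm28661*), 29712 to 110286 counts (*Gm10925*) and 32224 to 142554 counts (*Gm28437*). For *mt-Co1*, 49.0% to 52.8% of the counts of gene and copy lay on the copy, and for *mt-Nd3* 50.7% to 54.6%. For *mt-Nd4l* and *mt-Nd4* the copies held 5 counts or fewer in every library, although these copies too had 0 mismatches. According to the study's methods, a read with several equally good locations was placed at random. Why genes with 0 mismatches were divided so differently was not tested. *mt-Atp8*, the small subunit 8 of ATP synthase, had 0 counts in all 6 libraries. On the mitochondrial genome it lies between *mt-Co2* and *mt-Atp6*, and between the copies of these genes on chromosome 1 the annotation leaves 233 bases with 0 genes. The 0 to 1 counts of *mt-Co2*, *mt-Co3* and *mt-Atp6* are therefore no measure of these transcripts, and the sum of gene and copy is given for them below. *mt-Atp8* shares 0.0% of its words of 81 bases with another annotated transcript, the sequence between the copies was not analysed here, and where its reads lay was not tested.

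**Figure D1:**
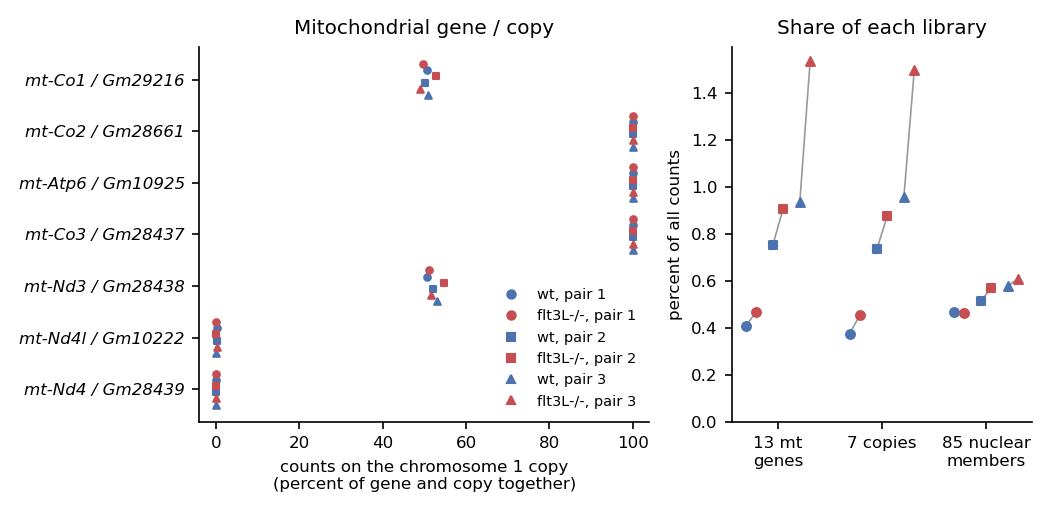
Left, the percentage of the counts of each mitochondrial gene and its chromosome 1 copy together that lay on the copy (x axis), with 1 point per library. The points sit near 0, between 49.0% and 54.6%, or at 100%. Right, the percentage of all counts of each library on the 13 mitochondrial genes, the 7 copies and the 85 nuclear members, with a line joining the wt and flt3L-/- libraries of each pair. The mitochondrial share was higher in flt3L-/- in each pair.

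The 13 mitochondrial genes took 0.407%, 0.752% and 0.935% of all counts in the wt libraries of pairs 1, 2 and 3, and 0.468%, 0.908% and 1.54% in the libraries labelled flt3L-/-. The share was higher in flt3L-/- in 3 of 3 pairs, by ratios of 1.15, 1.21 and 1.64, but the groups overlapped, since the flt3L-/- value of pair 1 lay below the wt values of pairs 2 and 3. The means were 0.698% ± 0.268 in wt and 0.971% ± 0.537 in flt3L-/- (SD, n = 3), and the difference of 0.273 percentage points did not pass an exact permutation test (two-sided p = 0.5). Within pairs the exact p was 0.25, the smallest that 3 pairs allow, while 3 against 3 libraries allow 0.1. The 95% Wilson interval of each share was at most 0.0045 percentage points to either side, which covers counting error only.

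The copies on chromosome 1 were assigned 0.376%, 0.735% and 0.957% of all counts in wt and 0.457%, 0.876% and 1.5% in flt3L-/-. Reads of the mitochondrial genes can be placed on these copies, so this is not a separate measurement. The 2 mitochondrial ribosomal RNAs, which are not members, were also higher in 3 of 3 pairs, by ratios of 1.22, 1.26 and 1.24. The 85 nuclear members held 0.469%, 0.513% and 0.58% of all counts in wt and 0.463%, 0.572% and 0.61% in flt3L-/-. Their ratios of 0.986, 1.11 and 1.05 were smaller than those of the mitochondrial genes in every pair. Mitochondrial counts were 131.4% ± 39.5 of the nuclear members' counts in wt and 170.6% ± 76.1 in flt3L-/- (SD, n = 3), higher in 3 of 3 pairs, with an exact permutation p of 0.5. Over the 7 such shares and ratios computed, the Benjamini-Hochberg adjusted exact p of 3 against 3 libraries was 0.583 for 6 of them and 0.8 for the nuclear share. Within pairs the unadjusted exact p was 0.25 for the same 6 and 0.5 for the nuclear share.

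Of the 98 members, 90 passed the filter of more than 1 CPM in at least 2 libraries and were tested, 81 nuclear and 9 mitochondrial. The others were *mt-Co2*, *mt-Co3*, *mt-Atp6*, *mt-Atp8*, *Cox6b2*, *Cox7b2*, *Cox8c* and *Atp5g2*. With edgeR, 0 of the 90 had an adjusted p under 0.05, as did 0.0% of all genes, and the smallest adjusted p of a member was 0.973. The study's own edgeR analysis did list genes under that threshold, which this fit did not reproduce. The study also reported gene sets of oxidative phosphorylation and of electron transport as higher in flt3L-/-, and sets were not tested here. DESeq2 called 21 genes in all and 0 members, with a smallest adjusted p of 0.912 among them. At an unadjusted p under 0.05 in edgeR there were 2 members, *mt-Nd6* and *mt-Nd4*, both higher in flt3L-/-, which is to be read against 1.11% of all genes higher and 2.49% lower. DESeq2 had 7 members at that threshold, all higher, against 1.24% of all genes higher and 3.52% lower: *mt-Nd1*, *mt-Nd2*, *mt-Nd4*, *mt-Nd5*, *mt-Nd6*, *mt-Cytb* and *mt-Co1*.

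*mt-Nd6*, a membrane subunit of complex I and the only protein gene on the light strand of the mitochondrial genome (chrM:13552-14070), had the smallest p of the members. Its level was 104.4, 199.3 and 263.3 CPM in wt and 121.3, 278.9 and 435.3 CPM in flt3L-/-, a log2 fold change of 0.48 (SE 0.15, unadjusted p = 0.0286 and adjusted p = 0.973 in edgeR). The reads carried no strand, so RNA from the opposite strand at this locus would be counted as *mt-Nd6*. The part of such RNA in these counts was not tested. *mt-Nd4*, another proton-pumping subunit (chrM:10167-11544), had 483.9, 901.6 and 1167.0 CPM in wt and 595.6, 1136.8 and 2047.8 CPM in flt3L-/- (log2 fold change 0.48, SE 0.18, unadjusted p = 0.0434). For both genes the flt3L-/- library was the higher in each pair, while the groups overlapped.

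*mt-Co1* (ENSMUSG00000064351, chrM:5328-6872) encodes the catalytic subunit of cytochrome c oxidase that binds oxygen. It had 1165, 1942 and 2522 CPM in wt and 1441, 2356 and 4566 CPM in flt3L-/- at the mitochondrial locus. The flt3L-/- library of pair 3 stood above all others, and the groups overlapped. The log2 fold change was 0.48 (SE 0.20, unadjusted p = 0.0602), and with its copy added it was also 0.48 (unadjusted p = 0.0612). *mt-Cytb*, the only complex III subunit of the mitochondrial genome, had 1241, 2290 and 2804 CPM in wt and 1495, 2628 and 4663 CPM in flt3L-/-, with a log2 fold change of 0.40 (SE 0.19, unadjusted p = 0.0905).

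The other complex I genes of the mitochondrial genome moved in the same way but for *mt-Nd3*. *mt-Nd1*, at the junction of the membrane arm and the arm that takes electrons from NADH, and *mt-Nd2* had log2 fold changes of 0.48 and 0.46 (unadjusted p = 0.0644 and 0.0742). Those of the membrane-arm subunits *mt-Nd5* and *mt-Nd4l* were 0.40 and 0.33 (unadjusted p = 0.0613 and 0.104). *mt-Nd3* had 13.4, 35.5 and 46.9 CPM in wt and 18.7, 28.2 and 67.4 CPM in flt3L-/-, lower in pair 2 and higher in pairs 1 and 3, with a log2 fold change of 0.22 (SE 0.22, unadjusted p = 0.367). With the copies added, the log2 fold change was 0.52 for *mt-Co2* (unadjusted p = 0.0292), 0.45 for *mt-Co3* (0.0638), 0.38 for *mt-Atp6* (0.111) and 0.24 for *mt-Nd3* (0.285), and 0 members had an adjusted p under 0.05.

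**Figure D2:**
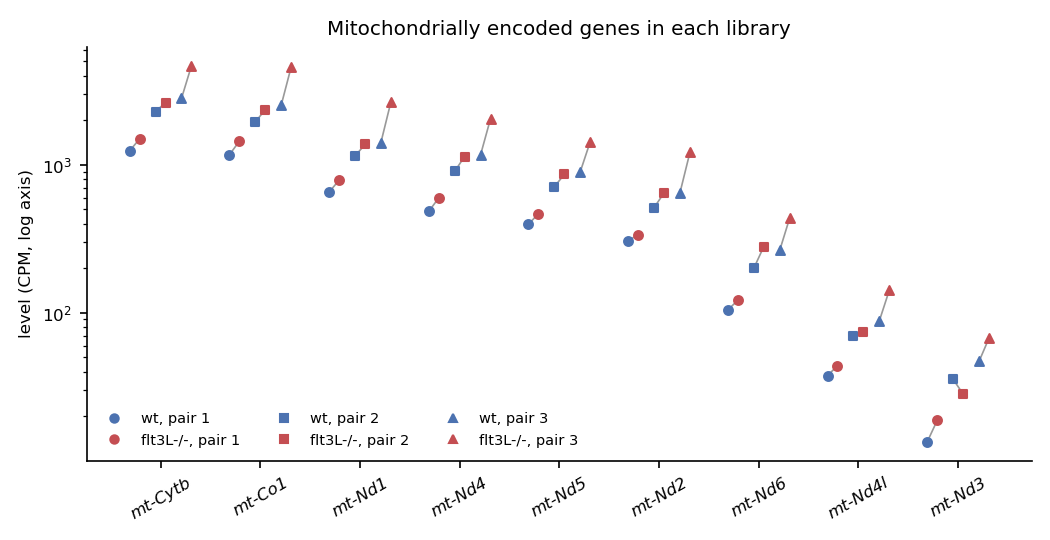
Level of the 9 mitochondrially encoded genes that were tested, in CPM on a log axis, with 1 point per library and a line from wt to flt3L-/- in each pair. In every gene but mt-Nd3 the flt3L-/- point of each pair lies above its wt point, and the levels rise from pair 1 to pair 3 in both genotypes.

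Over the 9 mitochondrial genes tested, 9 had a log2 fold change above 0, with a median of 0.457 and a range of 0.22 to 0.48. Their median differences were 0.267, 0.278 and 0.734 in pairs 1, 2 and 3, and 8 of 9 (88.9%) were higher in all 3 pairs, against 14.2% of all genes. Most of these genes are cut from long shared transcripts and all were measured in the same libraries, so they are not 9 independent measurements. The median was 0.567, 0.480 and 0.258 without pair 1, 2 and 3 in turn, so that pair 3, sorted in 2017, carried much of it. Without pair 3, 0 members had an unadjusted p under 0.05.

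The level of the mitochondrial genes also differed between sorting dates within each genotype. From pair 1 to pair 3 the median rise of the 9 genes was 1.18 on the log2 scale in wt and 1.75 in flt3L-/-, larger than the median genotype difference of any pair. The nuclear members rose by a median of 0.25 and 0.50 between the same dates, and all genes by 0.04 and -0.00. Fibroblast markers were lowest and mitochondrial genes highest in the flt3L-/- library of pair 3, and fibroblast markers were highest and mitochondrial genes lowest in the wt library of pair 1. All 10 fibroblast markers tested had a log2 fold change below 0 (median -0.65) and 10 of 12 endothelial markers one above 0 (median 0.27), and no marker of either list was at 0 counts in every library. In pair 2 the fibroblast sum was higher and the endothelial sum lower in flt3L-/-. Single fibroblast markers differed in direction there, from -0.61 for *Col3a1* to 0.66 for *Tcf21* on the log2 scale, with a median of 0.16. The median difference of the mitochondrial genes in that pair was 0.278. Cardiomyocyte markers, of cells rich in mitochondria, summed to 170.4 to 265.6 CPM in wt and 271.6 to 307.0 CPM in flt3L-/-, higher in each pair, with 10 of 11 above 0 (median 0.36). Erythroid markers, with 5 of 5 above 0 (median 0.33), summed to 243.0 to 419.0 CPM in wt and 371.8 to 491.0 CPM in flt3L-/-. Lymphocyte and NK cell markers were lower in each pair as a sum, from 70.9 to 268.6 CPM in wt and 33.9 to 111.3 CPM in flt3L-/-, with 5 of 6 below 0 (median -1.59). Macrophage and monocyte markers, with 4 of 9 above 0, ranged from 43.9 to 1774 CPM in wt and 101.8 to 1041 CPM in flt3L-/-. None of these markers was at 0 counts in every library. The part of these cell types in the mitochondrial values was not tested.

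The 81 nuclear members tested had a median log2 fold change of 0.12, where all genes had -0.00. Of them, 72 were above 0 and 9 below, the range was -0.49 to 0.59, and 27 (33.3%) were higher in all 3 pairs against 14.2% of all genes. In pair 1 the direction was not there: 35 of 81 were higher, with a median difference of -0.028. In pairs 2 and 3, 74 and 72 were higher, with medians of 0.182 and 0.193. Only *Cox4i2* was lower in all 3 pairs, which is 1.23% of the nuclear members and 11.5% of all genes. The nuclear median was 0.058 without pair 3 and 0.067 without pair 2, and it was 0.055 once a trend on transcript length had been removed from each library. The mitochondrial median was 0.379 after the same removal. The mitochondrial median exceeded the nuclear one by 0.295, 0.096 and 0.541 in pairs 1, 2 and 3, with the smallest gap in pair 2.

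**Figure D3:**
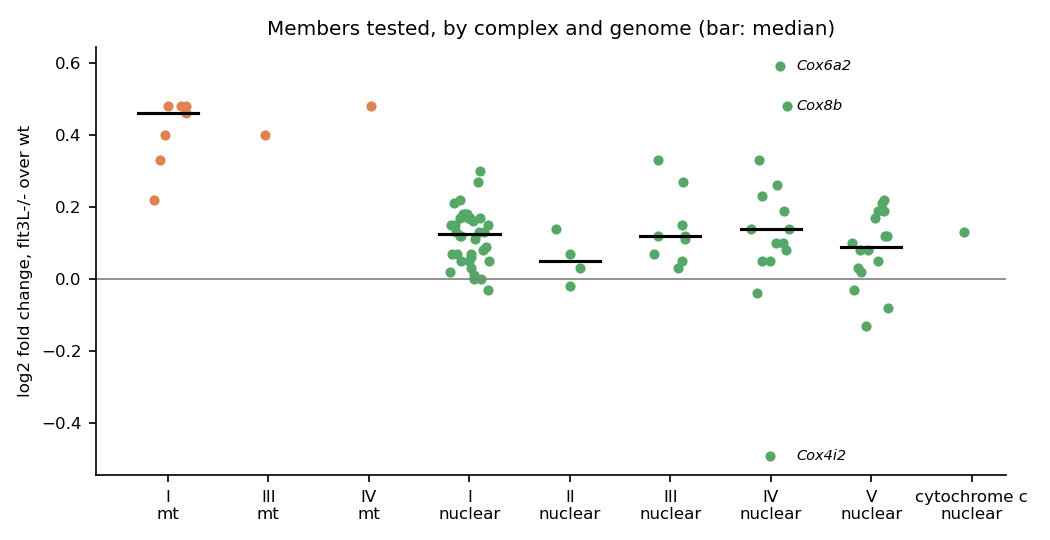
Log2 fold change of flt3L-/- over wt for the 90 members tested, by complex and genome, with 1 point per gene and a bar at the median of each group of more than 1 gene. The mitochondrial genes lie between 0.22 and 0.48, most nuclear genes between 0 and 0.3, and Cox6a2 and Cox4i2 mark the ends at 0.59 and -0.49.

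Levels of different genes were compared in TPM, a scale that divides counts by exon length. The length was that of all annotated exons of a gene, for example 419 bases for *Ndufa1* and 5628 for *Ndufb2*. Annotated exons absent from the RNA would lower a gene's TPM, so orders and isoform shares depend on the annotation too. With the copies added, *mt-Co3* had 12845 TPM on average over the 6 libraries, *mt-Atp6* 11677, *mt-Co1* 10471, *mt-Cytb* 7596 and *mt-Co2* 5807. The complex I genes followed, from *mt-Nd1* at 4791 and *mt-Nd4* at 2634 to *mt-Nd4l* at 881.1 and *mt-Nd3* at 727.5 TPM. Neighbours in this order overlapped between libraries, as in *mt-Co3* (5836 to 22400 TPM) and *mt-Atp6* (6195 to 19951 TPM). The nuclear members lay far lower, with a median of 99.2 TPM and a highest mean of 712.2 TPM for *Atp5b* on the same scale. *mt-Nd3*, the lowest mitochondrial gene with counts, ranged from 286.4 to 1248 TPM over the libraries and so was not set apart from the most abundant nuclear member. The median over nuclear members was 88.2 TPM for complex I, 185.1 for II, 157.5 for III, 67.2 for IV and 85.4 for V. The TPM values of single nuclear genes given below are on the scale without the copies, which is slightly higher.

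**Figure D4:**
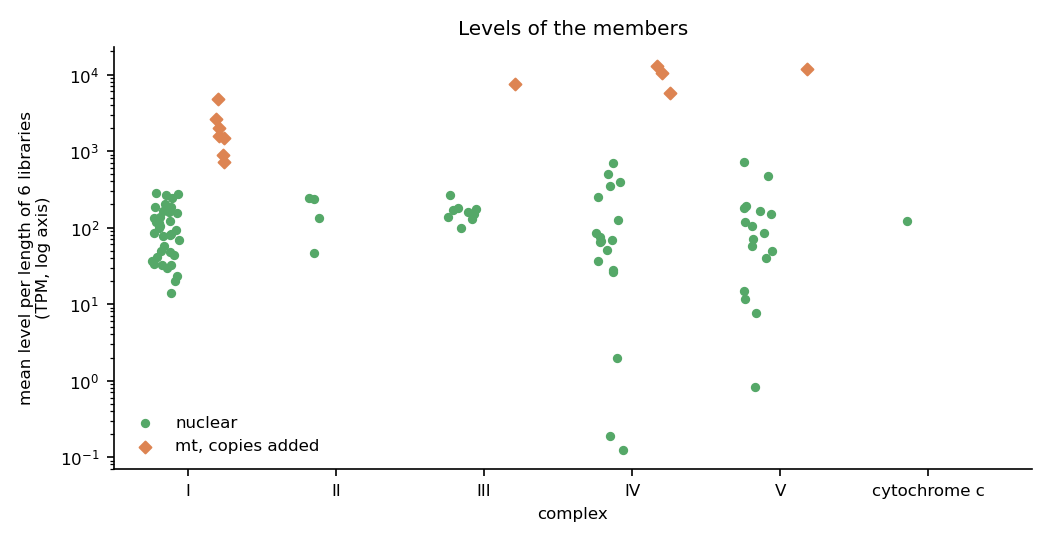
Mean level per length of each member over the 6 libraries, in TPM on a log axis, by complex. The 12 mitochondrial genes with counts, their copies added, lie from 727.5 to 12845 TPM, and the nuclear members, on the same scale, lie at or below 712.2 TPM.

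In complex I, which oxidises NADH, 33 of 36 nuclear members had a log2 fold change above 0 (median 0.125) and 9 were higher in all 3 pairs. Without pairs 1, 2 and 3 in turn the median was 0.208, 0.07 and 0.058. The most abundant per length were the accessory subunits *Ndufa1* (296.1 TPM) and *Ndufc2* (288.0 TPM). *Ndufa1* had a log2 fold change of 0.02, which turned to -0.02 with library size as the only scaling and to -0.06 without the length trend. *Ndufc2* had 46.1, 48.5 and 67.5 CPM in wt and 69.0, 62.7 and 64.5 CPM in flt3L-/-, higher in pairs 1 and 2 and slightly lower in pair 3 (log2 fold change 0.30, SE 0.17, unadjusted p = 0.152). The accessory subunit *Ndufb3* had the smallest p of the nuclear complex I genes. Its level was 20.4, 22.6 and 27.0 CPM in wt and 22.7, 28.9 and 33.1 CPM in flt3L-/-, higher in each pair (log2 fold change 0.27, SE 0.14, unadjusted p = 0.123).

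Of the 90 members tested, 2 had groups that did not overlap, *Ndufv1* and *Cox6a2*, both higher in flt3L-/-, against 3.53% of all genes in that direction and 2.92% in the other. *Ndufv1* was chosen for naming after its values were seen. It encodes the subunit that binds NADH, and it had 103.9, 112.4 and 117.8 CPM in wt and 119.1, 122.9 and 130.9 CPM in flt3L-/-. The log2 fold change was 0.16 (SE 0.12, unadjusted p = 0.236).

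Complex II, succinate dehydrogenase, feeds electrons from the citric acid cycle into the chain and has no mitochondrially encoded subunit. Its 4 genes had a median log2 fold change of 0.046, which was 0.119, -0.025 and 0.006 without pairs 1, 2 and 3 in turn and so had no stable direction. *Sdha*, the flavoprotein that oxidises succinate, had 297.8, 272.4 and 301.1 CPM in wt and 280.0, 277.0 and 301.0 CPM in flt3L-/- (log2 fold change -0.02, SE 0.12, unadjusted p = 0.869), and its groups overlapped over almost their whole range. *Sdhb*, the iron-sulfur subunit, had a log2 fold change of 0.07 (unadjusted p = 0.616). The membrane anchor *Sdhd* had 68.4, 87.2 and 83.0 CPM in wt and 77.5, 87.6 and 96.7 CPM in flt3L-/-, higher in each pair but by 0.01 on the log2 scale in pair 2 (log2 fold change 0.14, SE 0.13, unadjusted p = 0.327).

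All 9 nuclear genes of complex III, which passes electrons from ubiquinol to cytochrome c, had a log2 fold change above 0 (median 0.12), and 5 were higher in all 3 pairs. Without pairs 1, 2 and 3 in turn their median was 0.195, 0.053 and 0.111. *Cyc1*, the cytochrome c1 that hands the electron on, had 70.3, 73.6 and 88.0 CPM in wt and 83.9, 95.1 and 99.8 CPM in flt3L-/-. The flt3L-/- library was higher in each pair, the groups overlapped, and the log2 fold change of 0.27 (SE 0.12) had an unadjusted p of 0.0821. *Uqcrb*, a small subunit of the complex, had 54.0, 56.9 and 64.2 CPM in wt and 58.6, 68.6 and 97.0 CPM in flt3L-/- (log2 fold change 0.33, SE 0.15, unadjusted p = 0.084). It shared 14.6% of its words of 81 bases with other genes, so reads could have been split there. *Uqcr10*, another small subunit and the second most abundant at 184.7 TPM, had a log2 fold change of 0.03 that changed sign under 4 alternatives.

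Complex IV, cytochrome c oxidase, passes the electrons to oxygen, and 13 of its 15 nuclear members tested had a log2 fold change above 0 (median 0.137, and 0.218, 0.087 and 0.107 without pairs 1, 2 and 3). The most abundant per length were *Cox6a1* (717.5 TPM) and *Cox8a* (517.0 TPM). *Cox6a1* had 113.7, 115.8 and 148.1 CPM in wt and 121.4, 146.9 and 187.7 CPM in flt3L-/-, higher in each pair (log2 fold change 0.26, SE 0.13, unadjusted p = 0.102), and its groups overlapped. *Cox8a* had a log2 fold change of 0.05 (unadjusted p = 0.741), and it turned to -0.07 without pair 2 and to -0.04 without the length trend.

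*Cox4i2* (ENSMUSG00000009876, chr2:152754173-152765037) encodes the subunit 4 isoform known from lung, from pericytes and from cells in low oxygen. Its level was 18.9, 9.85 and 10.6 CPM in wt and 11.3, 9.24 and 6.80 CPM in flt3L-/-. It was lower in each pair, by 0.74, 0.09 and 0.64 on the log2 scale, though the groups overlapped. The log2 fold change was -0.49 (SE 0.23, unadjusted p = 0.0829, adjusted p = 0.973). *Cox4i1*, the common isoform, had 147.5, 159.7 and 198.5 CPM in wt and 154.7, 187.8 and 188.3 CPM in flt3L-/- (log2 fold change 0.08, SE 0.13, unadjusted p = 0.591). Per length, *Cox4i2* made up 20.1%, 10.8% and 9.51% of subunit 4 transcripts in wt and 12.6%, 8.83% and 6.63% in flt3L-/-, so its share was lower in each pair and fell with sorting date in both genotypes.

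Markers of pericytes and smooth muscle moved with *Cox4i2* in pairs 1 and 3. They summed to 921.4, 453.1 and 507.0 CPM in wt and to 574.0, 513.2 and 283.0 CPM in flt3L-/-, and 9 of 12 had a log2 fold change below 0 (median -0.42), with none at 0 counts in every library. The highest sum and the highest *Cox4i2* level were both in the wt library of pair 1, and the lowest of both were in the flt3L-/- library of pair 3. In pair 2 the sum was higher in flt3L-/-, and *Cox4i2* was lower by 0.09. The part of these cells in the *Cox4i2* values was not tested. *Ndufa4l2*, which is outside the rule, also marks pericytes and low oxygen, and it had 7.15, 5.93 and 3.46 CPM in wt and 4.18, 7.93 and 4.11 CPM in flt3L-/- (log2 fold change -0.03, SE 0.34, unadjusted p = 0.929).

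The striated muscle isoforms of cytochrome c oxidase were present at low levels and had log2 fold changes above 0. *Cox6a2* had 3.46, 6.86 and 7.26 CPM in wt and 7.50, 9.46 and 8.30 CPM in flt3L-/-, with every flt3L-/- library above every wt library (log2 fold change 0.59, SE 0.28, unadjusted p = 0.0955). Its difference shrank from 1.10 in pair 1 to 0.46 and 0.19 in pairs 2 and 3, and 10.3% of its exon bases are shared with another gene. *Cox8b* had 1.55, 2.52 and 3.27 CPM in wt and 2.33, 3.39 and 4.39 CPM in flt3L-/-, higher by 0.56, 0.42 and 0.41 on the log2 scale, but with overlapping groups (log2 fold change 0.48, SE 0.29, unadjusted p = 0.17). *Cox7a1* had a log2 fold change of 0.33 (SE 0.29, unadjusted p = 0.31) and was higher in 2 of 3 pairs.

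Cardiomyocyte markers were, as a sum, also higher in flt3L-/- in each pair, which *Cox7a1* was not. Their sum was 170.4, 265.6 and 239.9 CPM in wt and 291.2, 307.0 and 271.6 CPM in flt3L-/-, with every flt3L-/- library above every wt library, 10 of 11 markers tested above 0 (median log2 fold change 0.36) and none at 0 counts in every library. The suspension had been depleted of cardiomyocytes, and whether remaining cardiomyocyte RNA took part in the values of *Cox6a2*, *Cox7a1* and *Cox8b* was not tested. Without these 3 genes and *Cox4i2*, the nuclear median was 0.117 over 77 members. The partner isoforms *Cox6a1*, *Cox7a2* and *Cox8a* held most of the transcripts per length of each family, with 94.5%, 71.0% and 94.0% in flt3L-/- and 95.5%, 71.9% and 95.4% in wt on average.

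**Figure D5:**
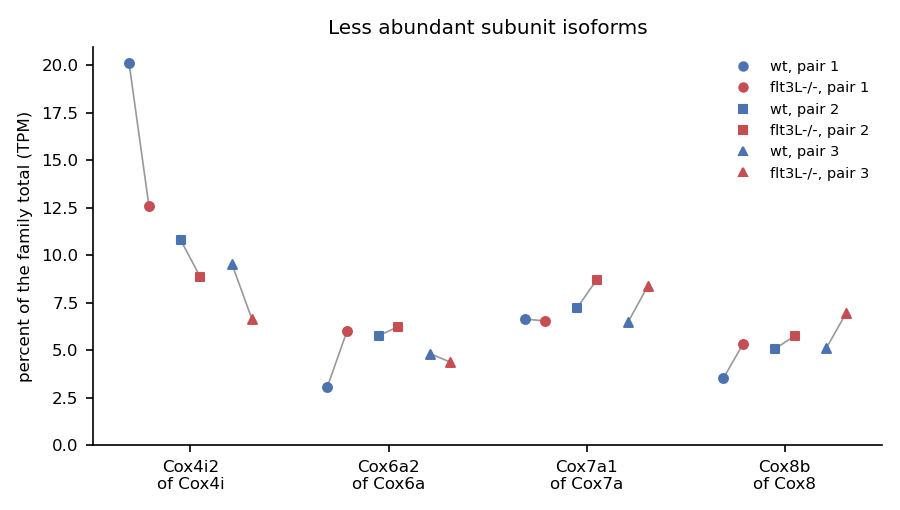
Share of Cox4i2, Cox6a2, Cox7a1 and Cox8b in the summed level per length of their isoform family, in percent, with 1 point per library and a line from wt to flt3L-/- in each pair. Cox4i2 lies lower and Cox8b higher in flt3L-/- in each pair, while Cox6a2 and Cox7a1 differ in direction between pairs.

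The other isoform families were dominated by 1 gene. *Cox6b1* held 99.3% of its family in wt and 99.6% in flt3L-/-, with a log2 fold change of 0.19 (unadjusted p = 0.265), and the testis isoform *Cox6b2* had 16, 21 and 20 counts in wt and 6, 18 and 13 in flt3L-/-. *Cox7a2*, the common subunit 7a, and *Cox7a2l*, counted in the same family, both had log2 fold changes of 0.10 (unadjusted p = 0.461 and 0.503). *Cox7b* had one of 0.14 (unadjusted p = 0.441), and its testis isoform *Cox7b2* had 0 counts in each wt library and 1 in each flt3L-/- library, all under the floor of 3 counts. *Cox8c*, also known from testis, had 3 counts in the wt library and 1 in the flt3L-/- library of pair 3 and 0 in the others.

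Complex V, ATP synthase, had 13 of 16 nuclear members tested above 0, a median log2 fold change of 0.089 and 7 members higher in all 3 pairs. The median was 0.153, 0.054 and 0.057 without pairs 1, 2 and 3. *Atp5b*, the catalytic beta subunit, was the most abundant nuclear member at 739.5 TPM. It had 703.9, 787.4 and 949.0 CPM in wt and 862.9, 853.6 and 1014 CPM in flt3L-/- (log2 fold change 0.17, SE 0.14, unadjusted p = 0.293), higher in each pair with overlapping groups. *Atp5a1*, the alpha subunit, followed at 485.1 TPM with a log2 fold change of 0.08 (unadjusted p = 0.579). *Atp5f1*, of the stalk that holds the catalytic head, and *Atp5g3*, a gene of the membrane ring, had the smallest p of complex V, with log2 fold changes of 0.22 (unadjusted p = 0.13) and 0.19 (unadjusted p = 0.187), and both were higher in each pair. Among the 3 genes that encode the ring protein, *Atp5g3* held 90.2% of the transcripts per length in wt and 90.4% in flt3L-/-, and *Atp5g2* had 6 to 13 counts per library. *Atp5g2* shares 35.5% of its words of 81 bases with other genes, and *Atp5o* shares 47.9% of its exon bases, so their values are uncertain.

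*Cycs*, the cytochrome c that carries electrons from complex III to complex IV, had 107.8, 110.3 and 115.2 CPM in wt and 113.1, 106.3 and 148.5 CPM in flt3L-/-. The libraries overlapped except for the flt3L-/- library of pair 3, which stood alone (log2 fold change 0.13, SE 0.14, unadjusted p = 0.412). Other genes hold 23.6% of its words of 81 bases, among them processed copies, so its reads could have been split too.

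Promoters of the nuclear members were searched for the binding motifs of 4 factor families known for respiratory genes. RefSeq (GRCm38.p6) promoters, from 250 bases before to 50 after the start, were at hand for 67 of the 85. The NRF1 motif GCGCANGCG was in 20 of them (29.85%) against 6.47% of 27025 promoters, the ETS motif CCGGAAG in 15 (22.39%) against 9.12%, the YY1 motif AAGATGGCG in 6 (8.96%) against 1.49%, and the ERR motif TCAAGGTCA in 2 (2.99%) against 0.41%. Both strands were searched, and a match is a description of the letters only. Promoters of *Cox6a1*, the most abundant complex IV gene, of *Sdhd*, which holds 3 different motifs, and of the muscle isoform gene *Cox8b*, which holds none, are shown with the matches in capitals. They lie at chr5:115348909-115349208, chr9:50603800-50604099 and chr7:140900397-140900696, each on the minus strand.
Cox6a1: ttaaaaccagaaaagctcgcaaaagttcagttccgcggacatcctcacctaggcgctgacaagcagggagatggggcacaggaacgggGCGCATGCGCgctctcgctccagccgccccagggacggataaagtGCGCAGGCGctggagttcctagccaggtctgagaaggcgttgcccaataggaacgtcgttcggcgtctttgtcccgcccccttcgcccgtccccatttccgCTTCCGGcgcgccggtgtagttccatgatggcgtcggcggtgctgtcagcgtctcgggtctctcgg
Sdhd: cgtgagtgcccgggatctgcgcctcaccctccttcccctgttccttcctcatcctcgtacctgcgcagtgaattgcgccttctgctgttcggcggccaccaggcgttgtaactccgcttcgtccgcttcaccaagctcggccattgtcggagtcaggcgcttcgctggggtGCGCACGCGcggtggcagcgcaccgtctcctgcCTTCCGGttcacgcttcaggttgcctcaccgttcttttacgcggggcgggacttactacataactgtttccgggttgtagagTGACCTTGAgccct
Cox8b: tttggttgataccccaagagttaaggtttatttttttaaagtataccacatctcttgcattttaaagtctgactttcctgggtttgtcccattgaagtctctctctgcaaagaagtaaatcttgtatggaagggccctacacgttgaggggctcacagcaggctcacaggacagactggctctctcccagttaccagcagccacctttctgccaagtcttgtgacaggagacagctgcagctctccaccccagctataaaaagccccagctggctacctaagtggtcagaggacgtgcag
In *Cox6a1* a palindromic match counts on both strands, which gives 3 NRF1 matches and 1 ETS match. *Sdhd* holds 1 NRF1, 1 ETS and 1 ERR match. The log2 fold changes of these 3 genes were 0.26, 0.14 and 0.48, and a link between motifs and genotype difference was not tested.

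Other genes of the pathway were described by lists of 93 symbols in all, of which 91 were tested. With edgeR and with DESeq2, 0 had an adjusted p under 0.05. In edgeR 1 had an unadjusted p under 0.05 and was higher, where 1.11% of all genes were, in DESeq2 0 had one, and 60 had a log2 fold change above 0 and 31 below. That gene was *Coa7*, an assembly factor of complex IV, with 10.1, 13.1 and 14.0 CPM in wt and 14.6, 16.9 and 19.7 CPM in flt3L-/- (log2 fold change 0.46, SE 0.16, unadjusted p = 0.0371, adjusted p = 0.973). Its groups did not overlap, and neither did those of *Ndufaf6* and *Sco2*, both also higher, where 3.53% of all genes did so in that direction. The highest wt and the lowest flt3L-/- value of *Ndufaf6* were both 5.51 CPM after rounding. *Sco2* shares 91.8% of its exon bases with another gene, so its value is uncertain. The complex I assembly list had 11 of 14 genes above 0 (median 0.12), among them *Tmem126b* with the smallest p of the list (0.28, unadjusted p = 0.13), and the complex IV assembly list 13 of 20 (median 0.04). The assembly lists of complexes II, III and V were small, and the genes of smallest p were *Sdhaf3* (0.47, unadjusted p = 0.274), *Ttc19* (-0.38, unadjusted p = 0.283) and *Tmem70* (0.25, unadjusted p = 0.126). *Ttc19* differed by 0.07, -1.19 and -0.02 in pairs 1, 2 and 3, and its log2 fold change was 0.01 without pair 2. Of the subunits outside the rule, *Ndufab1*, the acyl carrier protein in complex I, had a log2 fold change of 0.24 (unadjusted p = 0.161).

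Of the genes that copy and transcribe mitochondrial DNA or mature its transcripts, 9 of 21 had a log2 fold change above 0 and 12 below, with a median of -0.02. *Tfam*, which packs mitochondrial DNA and starts its transcription, had 27.5, 23.7 and 25.1 CPM in wt and 24.1, 24.9 and 23.5 CPM in flt3L-/- (log2 fold change -0.07, SE 0.15, unadjusted p = 0.648). *Tfb1m*, a methyltransferase of mitochondrial ribosomal RNA, had the smallest p of that list (-0.72, unadjusted p = 0.28). It rested on 5 to 53 counts per library, with differences of -0.38, -1.85 and 0.04 in pairs 1, 2 and 3. Without pair 2 its log2 fold change was -0.20. *Ppargc1a*, the coactivator of mitochondrial biogenesis, was lower in each pair, with 1.40, 2.79 and 1.79 CPM in wt and 0.946, 1.61 and 0.751 CPM in flt3L-/-. Its groups overlapped, and the log2 fold change of -0.86 (SE 0.40) had an unadjusted p of 0.085. It rested on 19 to 72 counts per library. Of the genes that respond to low oxygen and reactive oxygen, 9 of 9 had a log2 fold change above 0 (median 0.09). Only 3 of the 9 were higher in all 3 pairs, so the direction was not uniform between pairs. *Ucp2* differed by 1.04, -0.16 and -0.72 in pairs 1, 2 and 3 (log2 fold change 0.05, unadjusted p = 0.906). *Sod1*, the cytosolic superoxide dismutase, had the smallest p of the 9 (0.40, unadjusted p = 0.0661) and was higher in each pair.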

How the data were processed

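The deposited table holds counts per gene, made by the authors, without normalization. According to the study's methods, poly(A) RNA was amplified with a low-input kit and sequenced as unstranded single reads of 81 bases, which were mapped to mm10 with STAR 2.5.2a. Reads with at most 10 hits were kept and went to the best location, or at random to one of equally good locations, and those starting in an exon were counted with QuasR on an Ensembl annotation. Without strand, reads of overlapping genes cannot be separated.

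The 13475 protein-coding genes that exceeded 1 CPM in 2 or more libraries were fitted in edgeR 4.0.16 on R 4.3.3 with TMM factors and the quasi-likelihood test (legacy = TRUE), with the sorting date as a block. The labels give the dates. Same-date deviations from the group means correlated at 0.18, 0.104 and 0.116, and libraries of different dates at -0.354 to 0.247. Pair differences used a prior count of 2. No library was a copy of another, with a chi-square per degree of freedom of at least 54.6. Exact permutation tests were two-sided (SciPy 1.17.1). TPM used the summed exon length of GENCODE genes on GRCm38, of which 224 of 50600 table genes were not found. Words of 81 bases were compared between transcripts. The fit was tested on simulated data.

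Named were *mt-Co1*, *Cox4i2*, all mitochondrial members, in each complex the 2 nuclear members of highest TPM and the 2 of smallest p, 6 Cox isoform families, *Cycs*, *Cyc1*, members with an unadjusted p under 0.05 in 1 direction in all pairs, members that failed the filter, and, of each list of other pathway genes, the gene of smallest p with *Ndufa4l2*, *Tfam* and *Ppargc1a*. Members and lists were chosen with earlier results of these data known. Alternatives were 3 other scalings, the mitochondrial genes left out of the library size, DESeq2 1.42.0, legacy = FALSE, 2 other filters, no block, a length trend (lowess, span 0.3) removed, each pair left out and, chosen after the data were seen, the copies added.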

Additional observations from a re-analysis of the deposited data

Results flagged for a closer look

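The 7 copies of mitochondrial genes on chromosome 1 lie outside the genes that define the respiratory chain here, yet many counts were assigned to them. They match the mitochondrial genes with few or no mismatches, so these counts are not a measurement apart from those genes. The copies held 0.689% of all counts on average in wt and 0.944% in the libraries labelled flt3L-/-, against 0.698% and 0.971% for the 13 mitochondrial genes themselves. The copies were higher in flt3L-/- in 3 of 3 pairs, with an exact permutation p of 0.5 for 3 against 3 libraries and 0.25 within pairs. No set of 4 or more libraries of 1 group was at hand to look for a library that stands apart.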

How the results depend on the processing

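Under the 11 alternatives that kept all libraries, 0 members were called, the nuclear median log2 fold change lay between 0.055 and 0.126 and the mitochondrial one between 0.379 and 0.559. With 1 pair left out, 0 members were called, the nuclear median lay between 0.058 and 0.18, the mitochondrial one between 0.258 and 0.567, and the difference in the mitochondrial share of counts between 0.109 and 0.379 percentage points (0.273 with all pairs and 0.304 of protein-coding counts). Without the replicate block the medians were 0.122 and 0.559, and the number of members at an unadjusted p under 0.05 went from 2 to 0. That number was 7 with DESeq2, 1 with filterByExpr, 3 with the copies added, and 0 to 1 with a pair left out. The log2 fold change changed sign for *Ndufa1* (-0.02 with library size only, -0.06 without the length trend, -0.01 to 0.04 with a pair left out), *Uqcr10* (-0.01, -0.05 and -0.07 to 0.19 in the same order), *Cox8a* (-0.04 without the length trend, -0.07 to 0.10 with a pair left out), *Cox4i1* (-0.03 to 0.15 with a pair left out) and *Sdha* (-0.07 to 0.01 with a pair left out), and the cause was not tested. With 3 pairs, exact tests cannot pass 0.05, and genes under 3 counts cannot be compared.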
